A study of Mus musculus with 9 samples.

Results

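The sites described here are 355 of the 18427 H3K4me3 peaks listed for wild-type mouse spermatocytes, or 355 of the 11535 wild-type peaks that carried H3K4me3 without a listed H3K36me3 mark. They were selected on the peak lists themselves. Each overlapped an H3K4me3 peak of the EP mutant by at least 1 bp, and overlapped neither an H3K4me3 peak of the EK mutant nor a wild-type peak with both marks. They are called EP-only sites below. The study used chromatin immunoprecipitation and sequencing to map trimethylation of histone H3 lysine 4 (H3K4me3) and lysine 36 (H3K36me3). Each of the 3 genotypes had 2 libraries for the first mark and 1 for the second. All were spermatocytes taken 14 days post-partum. The wild type was C57BL/6J. The EP mice (C57BL/6J-Prdm9<em2Kpgn>/Kpgn) were homozygous for a change of glutamate 360 of PRDM9 to proline, and the EK mice (C57BL/6J-Prdm9<em3Kpgn>/Kpgn) for a change of the same residue to lysine, both described in the labels as severe catalytic hypomorphs. Both mutant strains share the C57BL/6J background. The authors deposited 1 list per genotype and kind, with peak positions only, so no value has a replicate error, the read depth behind a peak is unknown, and intervals given for shares and medians are 95% intervals that cover the sampling of sites alone. A site absent from a list may lie just under the threshold of detection. Of the 9 libraries 6 were earlier data re-analysed, the EP H3K4me3 libraries among them, while 1 of the EK H3K4me3 libraries was new. For H3K36me3 the wild-type library was an earlier one and both mutant libraries were new, so for that mark genotype and the origin of the library cannot be told apart. For H3K4me3, on which the choice of sites rests, the EP and EK libraries also differed in part in origin. Genotype and origin cannot be fully told apart there either. Every list was confined to known PRDM9-dependent sites, and holds no expression values, so the labelled cell type was not checked against markers.

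PRDM9 is a meiosis-specific protein whose zinc fingers bind DNA and whose PR/SET domain methylates lysine 4 and lysine 36 of histone H3 on the nucleosomes around the bound site. The double-strand breaks that start meiotic recombination form at such sites. Both marks also have other sources in the same cells: promoters carry H3K4me3, and the bodies of transcribed genes carry H3K36me3 placed by SETD2.

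Of the 355 sites, 4 overlapped a promoter window listed by RefSeq (300 bases, from 250 before to 50 after a start site, assembly GRCm38.p6). The share, 1.13%, was near the 1.01% of all H3K4me3-only peaks, and 2.06% of those kept in both mutants overlapped such a window. The table of windows is not complete, so 4 is a count of matches in it and not of all promoters at these sites. These are the sites whose sequence could be shown, and they are printed because they give a view of what lies under the wild-type and EP intervals. They were chosen after their values were seen. Capitals mark the bases inside the EP H3K4me3 interval, and every sequence runs 5′ to 3′ on the strand of the gene.
Pou2f1 (minus strand, chr1:165934899-165935198): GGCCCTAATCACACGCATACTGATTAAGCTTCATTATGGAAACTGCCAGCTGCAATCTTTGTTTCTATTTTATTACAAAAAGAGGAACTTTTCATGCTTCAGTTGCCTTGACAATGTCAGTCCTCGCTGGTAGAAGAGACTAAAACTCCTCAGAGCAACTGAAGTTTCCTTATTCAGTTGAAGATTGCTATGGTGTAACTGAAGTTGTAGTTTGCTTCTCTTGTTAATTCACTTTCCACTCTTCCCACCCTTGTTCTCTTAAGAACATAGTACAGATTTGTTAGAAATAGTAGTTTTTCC
Gm39736 (minus strand, chr1:190045101-190045400): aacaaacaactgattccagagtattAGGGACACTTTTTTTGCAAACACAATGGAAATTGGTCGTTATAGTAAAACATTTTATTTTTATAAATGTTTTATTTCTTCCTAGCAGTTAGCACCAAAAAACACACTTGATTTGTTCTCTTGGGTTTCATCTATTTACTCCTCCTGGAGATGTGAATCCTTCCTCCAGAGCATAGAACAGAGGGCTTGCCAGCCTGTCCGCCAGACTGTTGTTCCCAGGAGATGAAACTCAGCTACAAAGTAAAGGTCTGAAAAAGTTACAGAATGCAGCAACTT
Fth1 (plus strand, chr19:9980350-9980649): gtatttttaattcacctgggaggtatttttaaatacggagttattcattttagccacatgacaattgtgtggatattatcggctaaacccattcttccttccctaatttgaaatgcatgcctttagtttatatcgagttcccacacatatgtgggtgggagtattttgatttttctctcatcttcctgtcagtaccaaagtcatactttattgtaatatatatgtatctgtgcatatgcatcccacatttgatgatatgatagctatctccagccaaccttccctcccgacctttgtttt
Amt (plus strand, chr9:108296655-108296954): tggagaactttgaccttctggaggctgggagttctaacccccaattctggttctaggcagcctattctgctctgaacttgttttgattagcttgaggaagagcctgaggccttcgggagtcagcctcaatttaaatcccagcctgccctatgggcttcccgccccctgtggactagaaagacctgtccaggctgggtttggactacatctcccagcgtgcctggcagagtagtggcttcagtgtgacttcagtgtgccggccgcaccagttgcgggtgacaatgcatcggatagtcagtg

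The 4 windows divided by whether the EP interval still held the start site. At Pou2f1, which encodes the octamer-binding transcription factor OCT1, all 300 bases lay inside both the wild-type interval and the EP interval. This listed start site was internal to the gene, as the nearest protein-coding gene boundary lay 63441 bp from the wild-type interval. At Gm39736, a long non-coding RNA gene, all 300 lay in the wild-type interval and 275 in the EP interval. At Fth1, the ferritin heavy chain gene, 256 bases lay in the wild-type interval and none in the EP interval, which covered 132 bp further downstream (chr19:9980915-9981046). At Amt, which encodes the aminomethyltransferase of the glycine cleavage system, the wild-type interval again covered all 300 bases and the EP interval began beyond them, at chr9:108297123-108297865. The GC content was 38.0% at Pou2f1, 38.3% at Gm39736, 36.7% at Fth1 and 54.7% at Amt, beside a median of 52.7% over all 32851 listed windows. The CpG count was 2, 2, 4 and 7 in that order, beside a median of 7 over all windows. A search of both strands found TATAAA at Gm39736 and Fth1 (13.6% of all windows hold it), CCAAT at Gm39736 and Amt (37.4%), GGGCGG at Amt (35.7%) and CACGTG at none of the 4 (7.15%). Such matches describe the letters of these windows only.

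The EP-only sites were broad in wild type and narrower in EP. These widths come from lists that the rule used and are a description with no test. The wild-type interval had a median of 1949 bp (1771 to 2044 bp), with quartiles of 924 and 2332 bp and a range of 116 to 4427 bp. For comparison, the median was 941 bp over all H3K4me3-only wild-type peaks, 687 bp for those kept in both mutants (1890 peaks) and 744 bp for those kept in EK alone (567 peaks). It was 2043 bp for the 676 double-marked wild-type peaks kept in EP alone. The EP interval at the 355 sites had a median of 754 bp (723 to 794 bp), and the median ratio of EP to wild-type width was 0.430 (0.405 to 0.450). The ratio was 0.418 at the double-marked peaks kept in EP alone and 0.883 at the H3K4me3-only peaks kept in both. The gap to the latter went in part with width. From 1500 to 1999 bp the ratio was 0.465 at EP-only sites and 0.512 at peaks kept in both. From 2000 to 2499 bp it was 0.394 and 0.611, and at 2500 bp and over 0.387 and 0.551. Under 600 bp it was 0.529 and 0.952.

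The rule itself chose 3.08% of the H3K4me3-only peaks, in a list where EP kept 19.9% of all wild-type peaks. That share was far from even over width. Among H3K4me3-only peaks under 600 bp wide, 29 of 1353 were kept in EP alone (2.14%), 139 in EK alone and 653 in both. Between 600 and 999 bp, 66 of 5180 were kept in EP alone (1.27%), and between 1000 and 1499 bp 45 of 3628 (1.24%). From 1500 to 1999 bp the number was 47 of 861 (5.46%, 4.13 to 7.18%). From 2000 to 2499 bp it was 113 of 348 (32.5%, 27.8 to 37.6%), where 23 were kept in both and 3 in EK alone. At 2500 bp and over it was 55 of 165 (33.3%, 26.6 to 40.8%), where 69 were kept in both and 1 in EK alone. EP-only sites thus made up 83.1% of the 136 H3K4me3-only peaks of 2000 to 2499 bp that EP kept, and 4.25% of the 682 under 600 bp. Double-marked peaks were also kept in EP alone most often at these widths, with 38.5% of the 820 peaks of 2000 to 2499 bp kept in EP alone and 17.8% of the 292 wider ones.

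**Figure D1:**
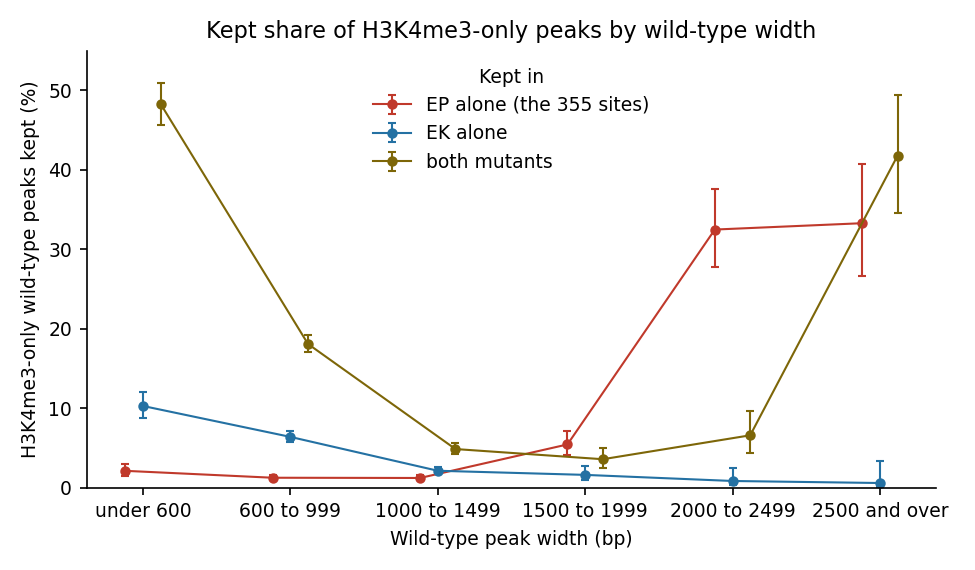
Share of H3K4me3-only wild-type peaks (%) kept in EP alone, in EK alone or in both mutants, in 6 classes of wild-type width (bp); points are shares and bars 95% Wilson intervals. The share kept in EP alone stays between 1.24% and 5.46% up to 1999 bp and is 32.5% and 33.3% in the widest classes, where EK alone kept under 1%.

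Within 1 class of wild-type width, the EP interval was narrower at EP-only sites than at sites that EK kept too. Its median was 924 bp (quartiles 763 and 1049 bp) at the 113 EP-only sites of 2000 to 2499 bp, against 1416 bp at the 23 sites kept in both. At 2500 bp and over the medians were 1097 and 1612 bp, and between 1000 and 1499 bp 468 and 829 bp. From 1500 to 1999 bp they were close, at 821 and 862 bp. The EP-only sites are by choice those where EK had no peak, so these values describe that choice.

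**Figure D2:**
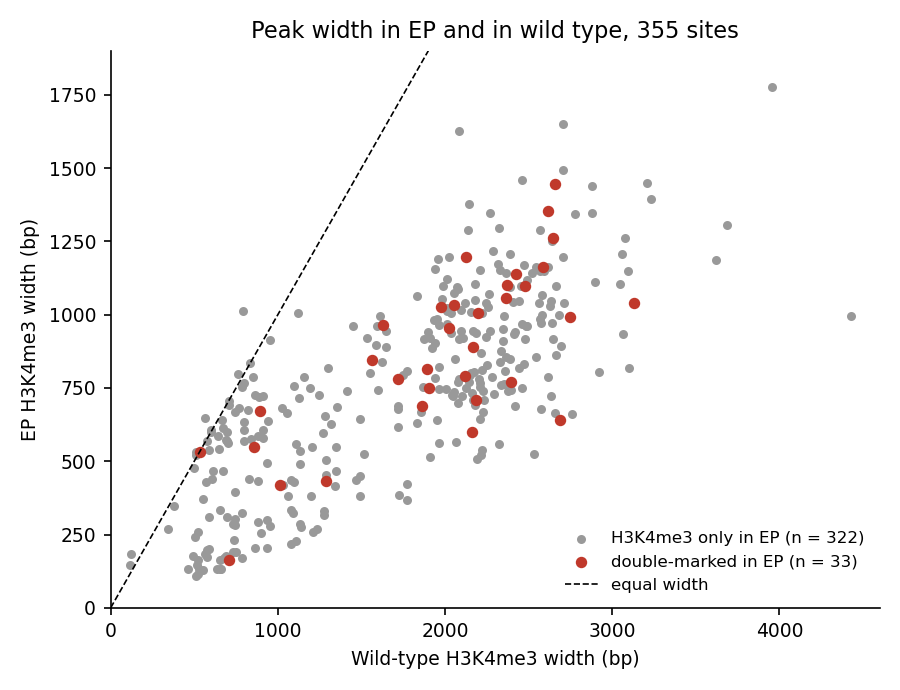
EP H3K4me3 width (bp) against wild-type H3K4me3 width (bp) at the 355 sites; each point is 1 site, red where the site is double-marked in EP, and the dashed line marks equal widths. Most points lie well below the line, with a median ratio of 0.430, and 27 of the 33 red points lie at 1500 bp or more on the wild-type axis.

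The narrow and the broad sites differed in how the EP interval sat in the wild-type one. Of the 215 sites of at least 1500 bp, the EP interval lay strictly inside the wild-type interval at 204 (94.9%) and covered the wild-type midpoint at 208 (96.7%). Its midpoint lay a median of 97.5 bp from the wild-type midpoint, and a median of 1357 bp of the wild-type interval fell outside it. The shrinkage at broad sites was thus on both flanks of a retained centre. Of the 45 sites of 1000 to 1499 bp, the EP interval covered the midpoint at 18 (40.0%) and shared exactly 1 border with the wild-type interval at 27, 16 at the start and 11 at the end. Of the 95 sites under 1000 bp, it covered the midpoint at 57 (60.0%), shared 1 border at 58 and passed beyond a wild-type border at 26. The EP interval was at least as wide as the wild-type one at 12 of these 95 and at none of the wider sites. How borders identical to the base arose was not tested.

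**Figure D3:**
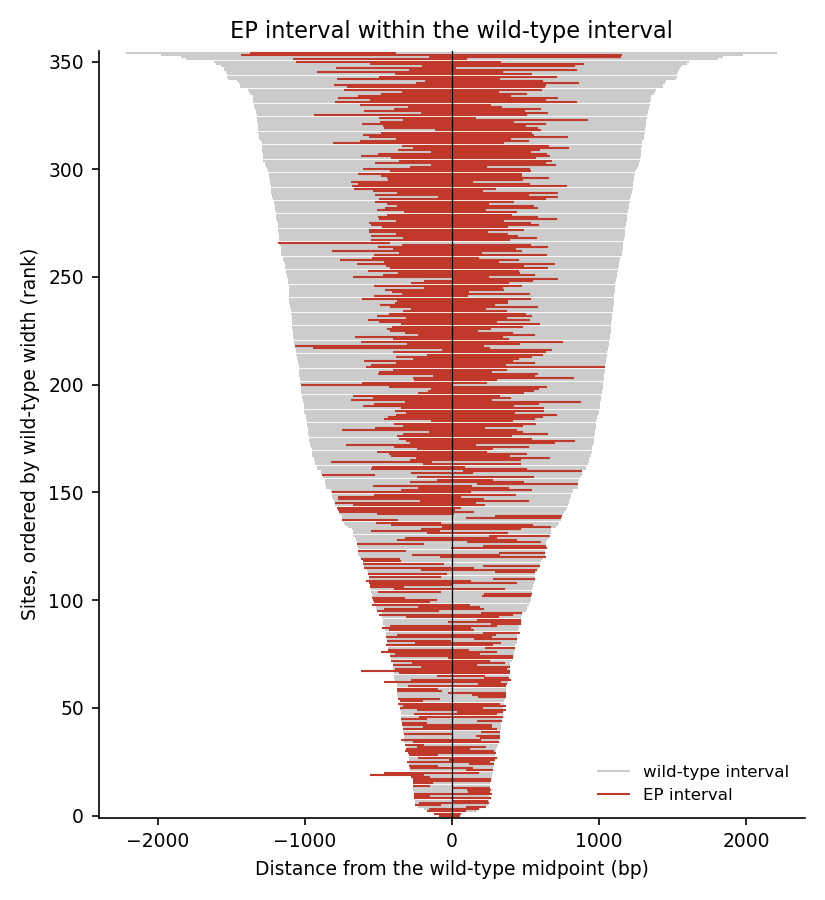
Extent of the wild-type interval (grey) and the EP interval (red) at the 355 sites, 1 line per site, as distance from the wild-type midpoint (bp), with sites ordered by wild-type width; at the single site with 2 EP intervals the red line spans both. At sites of at least 1500 bp the red lines cover the midpoint at 208 of 215. They do so at 18 of the 45 sites of 1000 to 1499 bp and at 57 of the 95 under 1000 bp.

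The 5 widest sites lay inside protein-coding genes. The widest wild-type interval, 4427 bp at chr13:13665514-13669940, lay within Lyst (gene identifier 17101), a regulator of lysosomal trafficking, and its EP interval was 995 bp (chr13:13666354-13667348). The next was 3955 bp at chr19:44147980-44151934, within Pkd2l1 (329064), which encodes a cation channel of the polycystin family. It was the single site with 2 EP intervals, which together made 1777 bp, the widest EP signal of the 355. Next in width, chr19:60537707-60541392 within Cacul1 (78832), was 3686 bp wide in wild type and 1306 bp in EP. The others of the 5 widest lay within Myh9 (17886), a non-muscle myosin heavy chain gene, at chr15:77785988-77789606 (3619 bp, 1185 bp in EP), and within Rbfox2 (93686), a splicing regulator, at chr15:77193303-77196531 (3229 bp, 1396 bp in EP). The EP interval thus held between 0.225 and 0.449 of the wild-type width at these 5.

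Ranked by EP width, the sites after Pkd2l1 had wild-type intervals of 2083 to 2706 bp, and 3 of the 4 lay above the upper quartile of 2332 bp. At chr6:148308443-148311145 in Tmtc1 (387314), an O-mannosyltransferase gene, the EP interval was 1649 bp of 2703 bp. At chr4:43555764-43557846 in Tln1 (21894), which encodes the adaptor talin, it was 1625 bp of 2083 bp and ended on the wild-type border. The values were 1494 of 2706 bp at chr1:119768221-119770926 in the tyrosine phosphatase gene Ptpn4 (19258), and 1459 of 2463 bp at chr16:17857252-17859714 in Dgcr2 (13356). These 4 kept between 0.552 and 0.780 of the wild-type width, more than the median site.

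At the other end, the 3 narrowest wild-type intervals were 116 bp at chr2:21063209-21063324 in the pseudogene Gm13377, 123 bp at chr1:46725200-46725322 in Dnah7c (100101919), an axonemal dynein heavy chain gene, and 341 bp at chr8:45455353-45455693 outside annotated genes. Their EP intervals were 146, 184 and 269 bp. At the first pair the EP interval reached past the wild-type start, so the width did not fall.

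H3K36me3 in EP was not part of the rule, and 33 of the 355 sites were in the EP double-marked list (9.30%, 6.70 to 12.8%). Over all wild-type peaks kept in EP the share was 11.2%, so the members' count lies near that background, which includes peaks double-marked in wild type. At the double-marked wild-type peaks kept in EP alone it was 84 of 676 (12.4%, 10.1 to 15.1%), an interval that overlaps that of the EP-only sites, with no test made. The pooled shares hid a difference by place. Within protein-coding gene spans, 71 of 329 of those peaks were double-marked in EP (21.6%), against 30 of 292 EP-only sites (10.3%). Outside such spans the numbers were 13 of 347 (3.75%) and 3 of 63 (4.76%). The test compared the EP-only sites with the 1890 H3K4me3-only peaks kept in both mutants, of which 68 were double-marked in EP (3.60%, 2.85 to 4.54%). The difference was 5.70 percentage points (odds ratio 2.74, 1.72 to 4.30, two-sided Fisher's exact test, p = 1.67e-05). Sites are not replicates, so this test compares 2 sets of sites in the same pair of EP lists. The difference was smaller and not resolved when sites of like wild-type width were compared. The Mantel-Haenszel odds ratio over the classes of width was 1.24, with an interval of 0.704 to 2.20 that includes 1. This comparison was chosen after the data were seen. The share was higher at EP-only sites than at those kept in both in each class up to 2499 bp, on few sites. It was lower at 2500 bp and over (12.7% against 18.8%). Among the EP-only sites, 4 of the 95 under 1000 bp were double-marked (4.21%, 1.65 to 10.3%) and 27 of the 215 of at least 1500 bp (12.6%, 8.78 to 17.7%).

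At these 33 sites both marks were listed in the mutant where the wild-type lists had H3K4me3 alone. The double-marked interval had a median of 845 bp, with a range of 162 to 1444 bp, and was as wide as the EP H3K4me3 interval at 30 of the 33. The lists do not show how far H3K36me3 extended within these intervals. The widest, at chr3:116665380-116668034, overlapped the microRNA gene Gm51275, and the whole of its EP interval of 1444 bp was listed as double-marked. The second lay at an end of Hsf2bp (74377), at chr17:31942535-31945151, with 1355 of 2617 bp retained and listed as double-marked. Hsf2bp encodes a BRCA2-binding protein that acts at meiotic recombination sites. Senp2 (75826), a SUMO protease gene, followed at chr16:22027584-22030226, with 1260 of 2643 bp. After it came Parp4 (328417) at chr14:56648136-56650262 with 1198 bp and Vps13b (666173) at chr15:35525391-35527975 with 1164 bp. Spidr (224008), which encodes a scaffold protein of homologous recombination repair, held another, at chr16:16109337-16111760, with 1137 of 2424 bp. The exoribonuclease gene Dis3l2 (208718) held one at chr1:86764030-86766398, with 1102 bp. A site at chr5:23856899-23859378 lay outside annotated genes, with 1099 bp. Adk (11534), the adenosine kinase gene, and Usp38 (74841), a deubiquitinase gene, followed with 1056 bp at chr14:21331099-21333460 and 1041 bp at chr8:81004932-81008063. The first 10 by EP width all had wild-type intervals over 2000 bp.

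EP-only sites lay mostly within genes. A protein-coding gene span held 292 of the 355 (82.3%, 77.9 to 85.9%), a span of any gene type 308 (86.8%, 82.8 to 89.9%), and 47 lay outside every annotated gene. Over all H3K4me3-only peaks the protein-coding share was 56.6% (55.7 to 57.5%), for those kept in both mutants 61.4% (59.2 to 63.5%), and for those kept in EK alone 54.1%. The double-marked peaks kept in EP alone lay in protein-coding genes at 48.7% (44.9 to 52.4%). Their median width was near that of the 355 sites, but 4.73% of them were under 1000 bp, against 26.8% of the 355. Position in genes was not itself used by the rule, but the rule left out double-marked peaks, and that split went with gene position. At 2000 bp and over, 95.3% of H3K4me3-only peaks and 43.4% of double-marked peaks lay in protein-coding genes. The contrast with the double-marked peaks is thus not independent of the rule. The intervals of the 355 sites do not overlap those of the other classes, but these classes also differ in width, and no test was made.

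The share within genes followed width among H3K4me3-only peaks in general. Of the EP-only sites under 1000 bp, 51 of 95 lay in protein-coding genes (53.7%, 43.7 to 63.4%), and of those of at least 2000 bp, 163 of 168 (97.0%, 93.2 to 98.7%). The other H3K4me3-only peaks were at 51.9% under 1000 bp and 94.5% (91.6 to 96.4%) at 2000 bp and over. At 2000 bp and over the values of the EP-only sites and of the other H3K4me3-only peaks thus lay close together, and at intermediate widths they lay further apart. Between 1000 and 1499 bp they were 33 of 45 EP-only sites (73.3%, 59.0 to 84.0%) and 53.8% (52.1 to 55.4%) of the others, most of which both mutants lost. The peaks of this width kept in both mutants were at 68.4% (61.2 to 74.8%), near the EP-only sites. Between 1500 and 1999 bp the values were 45 of 47 EP-only sites (95.7%, 85.8 to 98.8%) and 79.1% (76.2 to 81.8%) of the others, with 77.4% (60.2 to 88.6%) of the 31 kept in both. Double-marked peaks went the other way, from 67.4% under 1000 bp to 43.4% (40.5 to 46.4%) at 2000 bp and over. The signal behind each list is not in these values, so how H3K36me3 over gene bodies entered the calls of both marks was not tested.

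**Figure D4:**
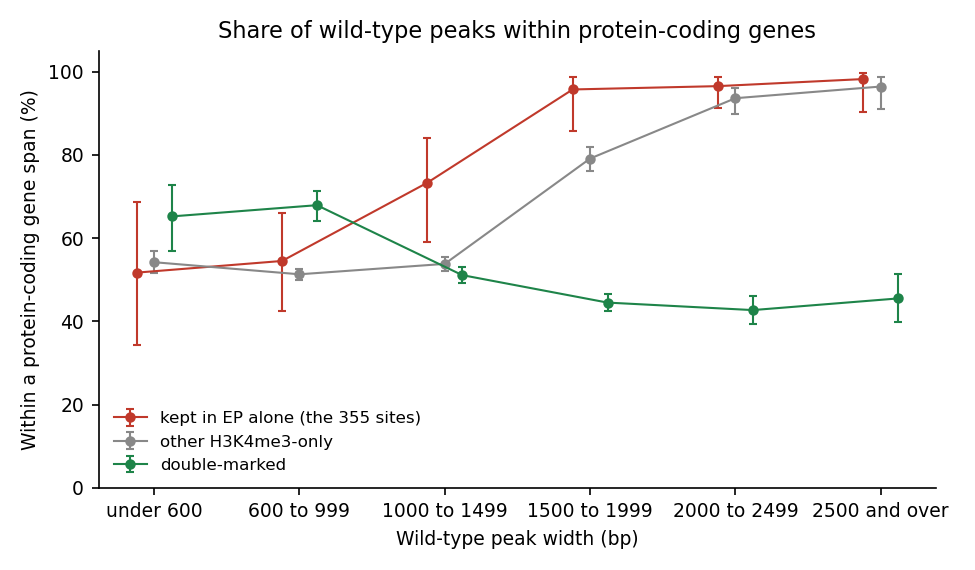
Share of wild-type peaks within a protein-coding gene span (%) by wild-type width (bp), for the 355 sites, the other H3K4me3-only peaks and the double-marked peaks; bars are 95% Wilson intervals. The 355 sites lie above 90% from 1500 bp and the other H3K4me3-only peaks from 2000 bp, while double-marked peaks fall to 42.7% and 45.5%.

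The place of the sites along their genes was described with no test. For 237 sites in a single protein-coding gene of known strand, the median place was 0.499 of the span from the 5′ end, and 4 equal parts of the span held 55, 65, 57 and 60 of them. The 934 such peaks kept in both mutants had a median of 0.381, with 352 in the part nearest the 5′ end. Over all H3K4me3-only peaks the median was 0.508, and over double-marked peaks kept in EP alone 0.479. The genes of 282 EP-only sites had a median span of 89.3 kb (quartiles 42.4 and 164 kb), against 90.6 kb for those kept in both mutants, 104 kb over all H3K4me3-only peaks in a single gene and 163 kb for double-marked peaks kept in EP alone. A boundary of a protein-coding gene lay within 1 kb of 25 sites (7.04%, 4.82 to 10.2%), beside 4.03% of all H3K4me3-only peaks and 6.72% of those kept in both. At 15 of the 25 the boundary lay inside the wild-type interval, and 5 of these tied sites are named, taken in the alphabetical order of chromosome names. The first was chr12:84917660-84920706 at Arel1 (68497), an apoptosis-resistance ubiquitin ligase gene, and the next chr13:3565574-3568147 at Gdi2 (14569) and Tasor2 (105203). Then came chr14:31236928-31239090 at Phf7 (71838), a germline chromatin reader. The last were chr15:76500677-76502886 at Dgat1 (13350) and Hsf1 (15499), and chr16:10419379-10421390 at Nubp1 (26425) and Tvp23a (383103). The EP intervals of these 5 sites were 1104, 970, 600, 1151 and 1024 bp in that order, and the one at Phf7 was double-marked in EP.

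The 292 sites within protein-coding spans fell in 287 genes, 1.31% of the 21896 in the gene table, where 24.4% held some wild-type H3K4me3 peak. Of these genes 13 held 2 sites and 1 held 3. That gene was Ercc6l2 (76251), a helicase-like protein gene linked to DNA repair, with sites of 1494 bp (chr13:63887946-63889439), 732 bp (chr13:63890482-63891213) and 2617 bp (chr13:63891636-63894252), side by side, and EP intervals of 451, 285 and 786 bp. It held 4 wild-type peaks in all. Pairs of sites lay in Htt (15194), the huntingtin gene, with 2327 and 2218 bp, in Herc2 (15204), a giant ubiquitin ligase gene, with 2104 and 2666 bp, and in the cohesin subunit gene Stag1 (20842), with 2212 and 2749 bp. These genes held 3, 7 and 12 wild-type peaks in that order. Other pairs lay in Cacul1, Ccdc171, Gpbp1, Iqsec1, Nfyc, Ola1, Pcm1, Slc4a7, Tnrc6c and Ttn, which held between 3 and 9 wild-type peaks each. From a list of genes of meiotic break formation, repair and synapsis, 71 were in the gene table, 17 held some wild-type H3K4me3 peak and 2 held an EP-only site, namely Hsf2bp and Hrob, a factor of MCM8 and MCM9 loading, with 1622 bp at chr11:102250352-102251973 and 839 bp in EP.

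The distance to other wild-type peaks was described with no test. Another wild-type H3K4me3 peak lay within 10 kb of 92 (25.9%, 21.6 to 30.7%), beside 19.7% (19.0 to 20.4%) of all H3K4me3-only peaks, and within 50 kb of 71.8% (66.9 to 76.3%), beside 58.9% (58.0 to 59.8%). Within protein-coding genes the values at 10 kb were 27.7% (22.9 to 33.1%) and 23.8% (22.8 to 24.8%), and outside them 17.5% and 14.3%. 

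All chromosomes but Y, which had 6 H3K4me3-only peaks, held EP-only sites, and their share was uneven. It was highest on chromosome 16, at 25 sites (5.33%, 3.64 to 7.75%), and on chromosome 14, at 26 (5.05%, 3.47 to 7.29%). It was lowest on chromosome 18, at 3 of 411 H3K4me3-only peaks (0.730%, 0.249 to 2.12%), and on X, at 3 of 398 (0.754%, 0.257 to 2.19%). All X-linked sites were broad, with 2006, 2124 and 2066 bp in wild type and 745, 750 and 564 bp in EP, and the last 2 lay in Aifm1 and Hprt. Those on chromosome 18 were narrow, with 521, 579 and 936 bp. The share of H3K4me3-only peaks kept in EK alone was also lowest on X among the chromosomes that held any, at 6 of 398 (1.51%). Double-marked peaks kept in EP alone were not rare on X, at 31 sites (13.8% of its double-marked peaks), and made 6.09% and 6.55% on chromosomes 14 and 16. With 20 chromosomes set side by side, some spread is to be looked for, and no test was made.

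**Figure D5:**
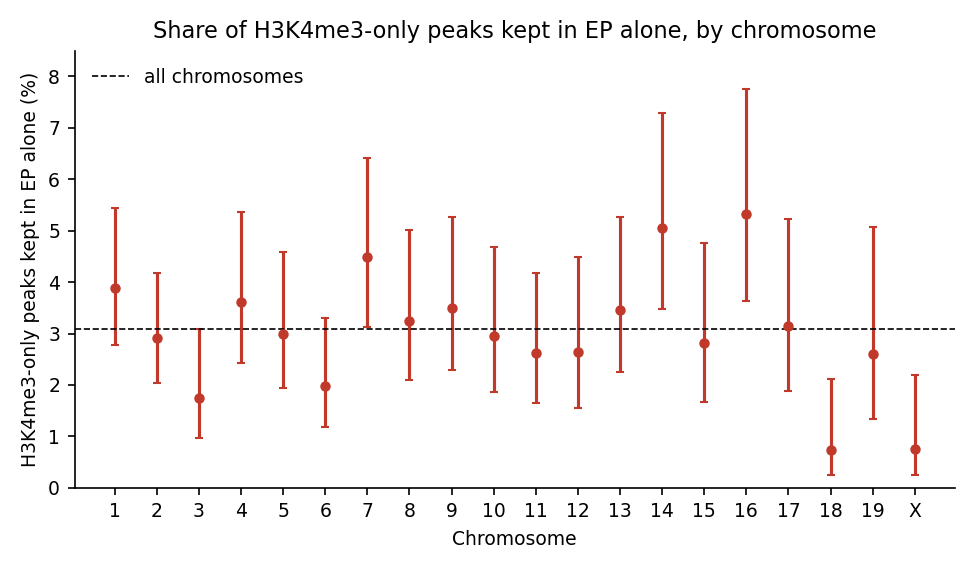
Share of H3K4me3-only wild-type peaks kept in EP alone (%), by chromosome; points are shares with 95% Wilson intervals, and the dashed line is the share over all chromosomes, 3.08%. Chromosomes 14 and 16 lie highest, and 18 and X lowest, with 3 sites each.

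The edge of the rule touched few sites. The smallest EP overlap was 89 bp, at chr11:6695737-6696290 in the non-coding gene Gm39575. The next were 107 bp at chr15:42220356-42220866 and the whole 116 bp of the narrowest site, which tied with another site on chromosome 9. The nearest EK peak lay 869 bp away, from chr4:134471901-134473187 in Stmn1 (16765), the stathmin gene, whose nearest wild-type double-marked peak lay at the same distance. The next were 1212 bp at chr2:76908782-76909986 in Ttn (22138), the titin gene, and 1499 bp at chr5:147471277-147472017 in Pan3 (72587). The median distance to an EK peak was 160373 bp. The double-marked site in Adk lay 2786 bp from a wild-type double-marked peak. Just outside the rule, H3K4me3-only sites kept in EP had EK overlaps of 27 bp at chr10:89747011-89747617 in Uhrf1bp1l, 28 bp at chr8:125708296-125708777 and 73 bp at chr1:45927884-45928358, with EP intervals of 213, 144 and 521 bp and EK intervals of 181, 151 and 299 bp.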

How the data were processed

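Peak positions came from 6 lists that the authors deposited, in base pairs on mm10, which hold no other values. Per the deposited description, each list, 1 per genotype over its libraries, was drawn from 1 set of sites that depend on PRDM9, and the wild-type and EP H3K4me3 lists came from an earlier series. Per the submitters' processing notes, Trimmomatic, BWA 0.7.9a and MACS 1.4 were used. The detection threshold is not given in the sources used here. Because a mutant peak elsewhere could not enter a list, overlap with wild type is built in.

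Lists were compared by overlap of at least 1 bp with pandas 2.3.3 in Python 3.11.15. Shares carry 95% Wilson intervals and medians 95% order-statistic intervals. The single test was Fisher's exact test (SciPy 1.17.1), with Mantel-Haenszel odds ratios (statsmodels 0.14.6) as alternatives. Classification and test were tested on simulated data. Gene spans came from a RefSeq table of GRCm38.p6, the assembly that mm10 is made from, and start sites and strands from its promoter windows. Base composition of whole peaks was not analysed here.

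The members, gene list and tests were chosen with earlier results of these data known. Named sites were at most 5 widest in wild type, 5 widest in EP, 10 double-marked in EP, 3 narrowest, 5 nearest a protein-coding boundary, and 3 at each edge of the rule. Genes with several sites, the X and chromosome 18 sites and the promoter sites were named after their values were seen.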

Additional observations from a re-analysis of the deposited data

How the results depend on the processing

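Of 78 values recomputed under an alternative, 68 stayed the same. That meant within their interval, within 1.5 times for the count of sites, or on the same side of the test's threshold. A direction could be judged for the odds ratio alone, which stayed above 1 under each alternative. Asking that EP intervals be at least as wide as the EP list's median left 207 sites, with median widths of 2210 bp in wild type and 954 bp in EP and 96.1% in a gene span. Geometric means gave 1500.5 bp and 657 bp for the same widths. A gene boundary lay near 22.5% of sites with a limit of 5 kb and near 11.5% with genes of any biotype, and a wild-type neighbour lay within 50 kb of 71.8%. At 5 kb the boundary share was 16.7% of all H3K4me3-only peaks and 28.2% (26.2 to 30.3%) of those kept in both mutants. The EP-only sites thus lay below those kept in both at 5 kb, but not at 1 kb (7.04% and 6.72%). That order was not among the 78 values. For double-marking in EP, the odds ratio against sites kept in both mutants ran from 2.08 to 2.74 under the other alternatives, and fell to 1.24 (0.704 to 2.20) over classes of wild-type width. That alternative and the one giving 2.08, over sites inside and outside protein-coding spans, were added after seeing the data. Of 36 sites, those chosen by the naming rule and the 4 promoter sites, between 25 and 36 stayed members under each alternative way to draw the lists. The X-linked share has no value on autosomes alone. No paired analysis was possible because each genotype has 1 list of each kind with no replicate numbers, so no library could be left out either. Unknown read depth limits every statement of absence.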

Other observations

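Broad wild-type peaks with H3K4me3 alone were nearly all genic, whether both mutants lost them, both kept them or EP alone did. Of the 513 H3K4me3-only peaks of at least 2000 bp, 489 lay in a protein-coding gene span (95.3%, 93.1 to 96.8%), against 483 of 1112 double-marked peaks of that width (43.4%). The 249 of them that both mutants lost were at 94.8% and the 92 that both kept at 94.6%, beside 97.0% of the 168 kept in EP alone.

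H3K4me3-only peaks that were double-marked in EP were also genic, at 97 of 101. Outside protein-coding spans, 1 of the 730 such peaks kept in both mutants was double-marked in EP and 3 of the 63 kept in EP alone. Within them the numbers were 67 of 1160 (5.78%) and 30 of 292 (10.3%).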
